A study of Mus musculus with 9 samples.

Results

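Trp53, the gene of the transcription factor p53, and 9 of its target genes were examined in the midbrain of DJ-1-/- mice. The genes were chosen by symbol: Trp53, Mdm2, Cdkn1a, Gadd45a, Ccng1, Bax, Bbc3, Pmaip1, Sesn1 and Phlda3, 10 of the 26602 genes with a count in at least 1 library. All 10 matched a gene identifier, had counts and passed the filter of at least 10 counts over the 9 libraries that left 18127 genes for testing. The study sequenced a piece of midbrain containing the substantia nigra pars compacta of 9 untreated mice, 4 of them DJ-1+/+ and 5 DJ-1-/-, at an age of 3 to 4 months. The DJ-1-/- mice carry a germline inactivation of Park7, the DJ-1 gene, in every cell, and the line had been backcrossed to C57BL/6 mice. DJ-1+/+ controls came from the same heterozygous breeding and shared cages with the DJ-1-/- mice. The labels number the libraries as replicates without saying that each came from a separate animal. The study's supplementary table adds a different number in brackets to each library name, without saying what it stands for. The p-values therefore cover the spread between these libraries, which are called mice here.

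p53 is held at a low level in unstressed cells because Mdm2, a ubiquitin ligase that is itself a p53 target, marks it for degradation. DNA damage and other stresses release p53, which then binds DNA as a tetramer and switches on genes that stop the cell cycle, repair DNA, restrain growth signalling or trigger apoptosis through the mitochondria. Because p53 is controlled mainly at the protein level, the RNA of its targets is the usual readout of its activity in tissue, and p53-dependent death of neurons has long been studied in models of Parkinson's disease. DJ-1 has been described as a modulator of p53.

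The p53 response element is built from pairs of a 10-base unit, referred to here as the p53 decamer, with a spacer of up to 13 bases between them. RefSeq start sites on GRCm38.p6, read from 250 bases before to 50 after the start, were searched for the decamer consensus on both strands. For 9 of the 10 genes the table held a window, 13 windows in all because Cdkn1a, Bbc3 and Sesn1 have several start sites. The decamer occurred in 7 of the 13 windows, 53.8% of them and in 7 of the 9 genes, whereas it occurred in 8.36% of the 32851 windows of all genes. Cdkn1a had 2 decamers close enough to form a pair, an arrangement found in 0.0731% of all windows. The genes were picked as p53 targets, so this share is a description of the choice. The windows of Trp53, of Cdkn1a with its pair, and of Ccng1, the gene with the smallest p between genotypes, are shown 5′ to 3′ in lower case with the decamers in capitals.
Trp53, chr11:69580109-69580408, plus strand: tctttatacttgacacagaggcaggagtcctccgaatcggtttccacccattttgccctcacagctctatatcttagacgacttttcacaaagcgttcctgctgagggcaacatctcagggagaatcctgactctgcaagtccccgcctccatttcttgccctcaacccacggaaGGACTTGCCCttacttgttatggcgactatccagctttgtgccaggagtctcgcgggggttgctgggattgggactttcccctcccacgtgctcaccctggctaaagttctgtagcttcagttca
Cdkn1a, chr17:29090729-29091028, plus strand: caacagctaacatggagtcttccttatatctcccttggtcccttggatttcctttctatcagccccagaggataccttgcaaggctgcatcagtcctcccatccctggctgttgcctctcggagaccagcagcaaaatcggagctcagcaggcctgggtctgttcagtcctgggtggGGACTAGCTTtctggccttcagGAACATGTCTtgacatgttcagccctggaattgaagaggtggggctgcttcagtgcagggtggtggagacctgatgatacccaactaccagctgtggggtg
Ccng1, chr11:40755237-40755536, minus strand: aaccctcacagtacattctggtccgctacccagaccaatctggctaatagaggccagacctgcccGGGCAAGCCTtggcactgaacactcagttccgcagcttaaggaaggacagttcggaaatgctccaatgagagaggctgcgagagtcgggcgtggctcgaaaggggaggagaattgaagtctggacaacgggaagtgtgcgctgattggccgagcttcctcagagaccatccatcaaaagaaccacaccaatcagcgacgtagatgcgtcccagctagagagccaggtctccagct
The decamers began 75 bases before the start in Trp53, 73 and 51 bases before the first of 2 start sites in Cdkn1a and 185 bases before the start in Ccng1. The other decamers were the following, shown to compare their letters.
Mdm2, 186 bases before the start: GAACTTGCCT
Gadd45a, 40 bases before the start: GGGCTAGCCC
Bax, 201 bases before the start: AGGCAAGCTT
Sesn1, second start site, 173 bases before the start: AAGCTTGTTT
The windows of Bbc3 and Phlda3, the second window of Cdkn1a and the first of Sesn1 held none in these 300 bases.

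Libraries held between 841974 and 886085 counted molecules in DJ-1+/+ and between 967751 and 1098125 in DJ-1-/- mice, so that every DJ-1-/- library was deeper (two-sided p = 0.0159 by an exact permutation test, which cannot go lower with these group sizes). A floor of 3 counts per library corresponded to 2.73 to 3.56 counts per 1000000 of the library total (cpm) and covers counting error only. Park7 fell from 135 ± 15.7 cpm (SD, n = 4) to 20.4 ± 4.54 cpm (SD, n = 5), which fits the genotype labels (edgeR, adjusted p = 7.39e-08). Summed cpm of 10 neuron markers lay between 2710 and 2960 in all libraries, and of 12 dopaminergic neuron markers between 632 and 1170 in DJ-1+/+ and between 891 and 1230 in DJ-1-/- mice, with Th and Slc6a3 present in every library. Some libraries stood apart in their tissue content. DJ-1+/+ replicate 4 had 977 summed cpm over 12 choroid plexus markers and replicate 1 had 424, against 168 to 289 in the other 7. DJ-1+/+ replicate 1 had 1550 summed cpm over 10 cerebellar neuron markers, against 536 to 767 in the other 8. With edgeR's quasi-likelihood test all 12 choroid plexus markers were lower in DJ-1-/- mice, 7 of them at an unadjusted p under 0.05, with 4 of the 12 at 0 in some library. All 10 cerebellar markers were lower (5 at that level, with Gabra6 and Pcp2 at 0 in some libraries) and all 12 dopaminergic markers were higher (5 at that level). Over all genes tested 2.83% were called at that level and 51.9% were higher. These fits included the libraries that stood apart. Summed cpm of choroid plexus markers was 205 and 170 in DJ-1+/+ replicates 2 and 3, inside the DJ-1-/- range of 168 to 289. For cerebellar markers the sum was 686, 536 and 767 in DJ-1+/+ replicates 2, 3 and 4, against 568 to 750 in DJ-1-/- mice. Of 10 markers each of oligodendrocytes, endothelium, microglia and astrocytes 0 were called, with median log2 fold changes of −0.01, −0.04, 0.07 and 0. For 10 neuron and 5 haemoglobin markers 1 each was called, with medians of −0.01 and −0.15. Xist had 2 counts or fewer in 3 libraries, DJ-1-/- replicate 5 and replicates 1 and 4 of DJ-1+/+, and at least 146 in the other libraries. Bulk tissue does not tell fewer cells of a type from less RNA per cell.

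Trp53 and its targets had counts in every library of both genotypes, though Pmaip1 had only 3, 1, 2 and 11 across DJ-1+/+ replicates. No gene of the 10 differed after adjustment over all genes tested (edgeR's quasi-likelihood test, adjusted p = 1 for each), where 0.00552% of all genes did, which is Park7 alone. At an unadjusted p under 0.05, 1 of the 10 was called, Ccng1, against 2.83% of all genes tested and 1.57% called as higher in DJ-1-/- mice. DESeq2 called 0 of the 10 at either threshold. Of all 18127 genes it called 235 at the unadjusted and 1 at the adjusted threshold. Of the 10, 6 had a log2 fold change above 0 and 4 below, against 51.9% above 0 among all genes tested, and the median was 0.01, the same as over all genes tested. No gene of the 10 was free of overlap between the genotypes in cpm, where 1.25% of all genes tested were.

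**Figure D1:**
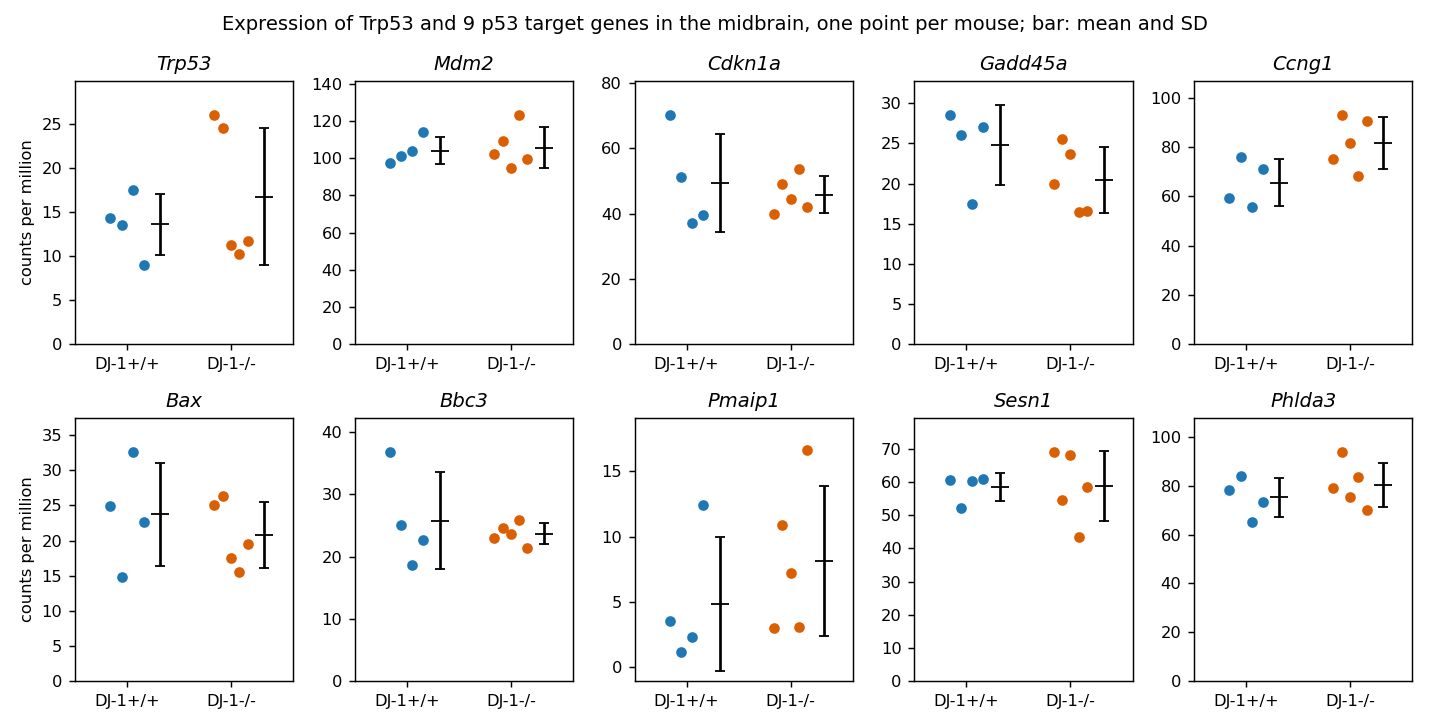
Expression of each gene in cpm (y axis, a scale for each gene, starting at 0 or, for Pmaip1, just below it), with 1 point per mouse in order of replicate number and a bar for the mean and SD of 4 DJ-1+/+ (blue) and 5 DJ-1-/- (orange) mice. The groups overlap for every gene; Ccng1 has 3 of 5 DJ-1-/- mice above all DJ-1+/+ mice, and Pmaip1 ranges from 1.14 to 16.6 cpm.

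Expression levels differed among the genes, and since each molecule was counted once near its polyadenylated end, cpm can be compared between genes without a length correction. Mdm2 was the most abundant at a mean of 105 cpm over the 9 libraries, above Phlda3 in 9 of 9 libraries and without overlap of their ranges. Phlda3 at 78.1 cpm, Ccng1 at 74.5 cpm, Sesn1 at 58.7 cpm and Cdkn1a at 47.5 cpm followed, and each overlapped with the next in this order. Cdkn1a was above Bbc3 in all 9 libraries. Bbc3 at 24.6 cpm, Gadd45a at 22.4 cpm and Bax at 22.1 cpm could not be ordered, since each exceeded the next in only 5 of the 9 libraries for Bbc3 over Gadd45a and for Gadd45a over Bax. Trp53 itself had 15.4 cpm and Pmaip1 6.7 cpm, with overlapping ranges. For comparison, the median over all genes tested was 35 cpm, with Mdm2, Phlda3, Ccng1, Sesn1 and Cdkn1a above it and Bbc3, Gadd45a, Bax, Trp53 and Pmaip1 below it.

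Trp53 sits on the plus strand of chromosome 11, bases 69580359 to 69591873 (GENCODE M21, GRCm38). It had 12, 12, 15 and 8 counts across DJ-1+/+ replicates and 26, 27, 11, 10 and 12 counts across DJ-1-/- replicates. DJ-1-/- replicates 1 and 2 were thus higher than every other library, while the other 3 DJ-1-/- mice lay within the DJ-1+/+ range. In cpm, Trp53 was at 13.6 ± 3.47 (SD, n = 4) in DJ-1+/+ and 16.8 ± 7.8 (SD, n = 5) in DJ-1-/- mice. Between genotypes the log2 fold change was 0.31 with a 95% interval of −0.41 to 1.04 (edgeR, unadjusted p = 0.374), a range from 0.752 to 2.05 as a ratio. Without DJ-1-/- replicate 1 it was 0.10 and without replicate 2 it was 0.13. The genes with the most similar profile over the 9 libraries were Elovl2, Dusp23 and Ppm1f, among 10766 genes with at least 20 counts per library on average. Their root mean square distance from Trp53, taken between log2 profiles scaled to unit SD, was 0.29, 0.33 and 0.37. Each of the 3 was likewise highest in DJ-1-/- replicates 1 and 2, as with Elovl2 at 43 and 41.9 cpm against 22.6 to 36.1 cpm in the others. With so many candidates and 9 libraries this is a description of these libraries.

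Mdm2, the ligase that limits p53, sits on the minus strand of chromosome 10, bases 117688875 to 117710758. Its cpm was 97.4, 101, 104 and 114 across DJ-1+/+ replicates and 102, 109, 94.9, 123 and 99.4 across DJ-1-/- replicates. The groups lay on top of each other, and DJ-1-/- mice held both the lowest and the highest value. Between genotypes the difference was 0.02 on the log2 scale with a 95% interval of −0.17 to 0.22 (edgeR, unadjusted p = 0.821), which makes Mdm2 the most precisely measured of the 10 genes, and a ratio outside 0.886 to 1.16 lay beyond that interval. The direction turned without DJ-1+/+ replicate 1 (−0.01) and without DJ-1-/- replicate 4 (−0.05). The ratio of Mdm2 to Mdm4, its partner that blocks p53 without degrading it on its own, was 0.932 ± 0.132 (SD, n = 4) in DJ-1+/+ and 0.981 ± 0.102 (SD, n = 5) in DJ-1-/- mice.

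Of the 3 genes of cell cycle arrest, Cdkn1a, which encodes the cyclin-dependent kinase inhibitor p21, is the classical p53 target. It sits on the plus strand of chromosome 17, bases 29090976 to 29100727. Its cpm was 70.1, 51.1, 37.2 and 39.5 across DJ-1+/+ replicates and 40, 49.2, 44.4, 53.7 and 41.9 across DJ-1-/- replicates. Every DJ-1-/- mouse lay within the DJ-1+/+ range, which had replicate 1 at its top. Between genotypes the difference was −0.11 on the log2 scale with a 95% interval of −0.50 to 0.28 (edgeR, unadjusted p = 0.567), and without DJ-1+/+ replicate 1 it was 0.11. That library also held the 1550 summed cpm of cerebellar neuron markers, whose part in this value was not tested. The profiles nearest to Cdkn1a were Wscd2, Bbc3 and Cnot3, at distances of 0.29, 0.33 and 0.35 among 10765 genes. Without DJ-1+/+ replicate 1, an alternative chosen after seeing the data, Bbc3 moved from second to rank 76 with a distance of 0.52 over 8 libraries. Wscd2 moved to rank 25 and Cnot3 to rank 15, so each likeness rested in part on that library.

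Gadd45a, which acts in growth arrest and DNA repair, sits on the minus strand of chromosome 6, bases 67035096 to 67037457. It shares 337 exon bases with the antisense transcript E230016M11Rik, which had 125 counts over the 9 libraries, and the use of strand in counting is not stated in the sources used here. Its cpm was 28.5, 26.1, 17.5 and 27.1 across DJ-1+/+ replicates and 20, 25.5, 23.7, 16.5 and 16.6 across DJ-1-/- replicates. Of the DJ-1-/- mice 4 of 5 were below the DJ-1+/+ mean of 24.8 cpm and 2 were below every DJ-1+/+ mouse. The log2 fold change of −0.27 had a 95% interval of −0.75 to 0.21 (edgeR, unadjusted p = 0.246). It was −0.41 without DJ-1+/+ replicate 3 (edgeR, unadjusted p = 0.0959) and −0.09 without DJ-1+/+ replicates 1 and 4.

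Ccng1, which encodes cyclin G1, a p53-induced regulator that recruits a phosphatase to Mdm2, sits on the minus strand of chromosome 11, bases 40748552 to 40755311. Its cpm was 59.4, 76.1, 55.8 and 71.1 across DJ-1+/+ replicates and 75.1, 92.9, 81.5, 68.2 and 90.6 across DJ-1-/- replicates. All 5 DJ-1-/- mice were above the DJ-1+/+ mean and 3 were above every DJ-1+/+ mouse, but the groups overlapped. The means were 65.6 ± 9.58 cpm (SD, n = 4) and 81.7 ± 10.4 cpm (SD, n = 5). On the log2 scale Ccng1 differed by 0.32 (standard error 0.13) with a 95% interval of 0.05 to 0.59 (edgeR's quasi-likelihood test, unadjusted p = 0.0249, adjusted p = 1). The unadjusted p was above 0.05 in edgeR's test without DJ-1+/+ replicate 1 (0.0691), DJ-1+/+ replicate 3 (0.0873), DJ-1-/- replicate 2 (0.0721) or DJ-1-/- replicate 5 (0.0627), and the log2 fold change stayed between 0.24 and 0.39 over the 9 such fits. With DESeq2 the unadjusted p was 0.0535, and without DJ-1+/+ replicates 1 and 4 together it was 0.0797 in edgeR's test. In edgeR's test it was 0.0644 with the replicate numbers as a block and 0.0231 with Xist expression added as a covariate. Without the filter on low counts it was 0.0135 in that test. The adjusted p was above 0.05 in each of these fits.

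**Figure D2:**
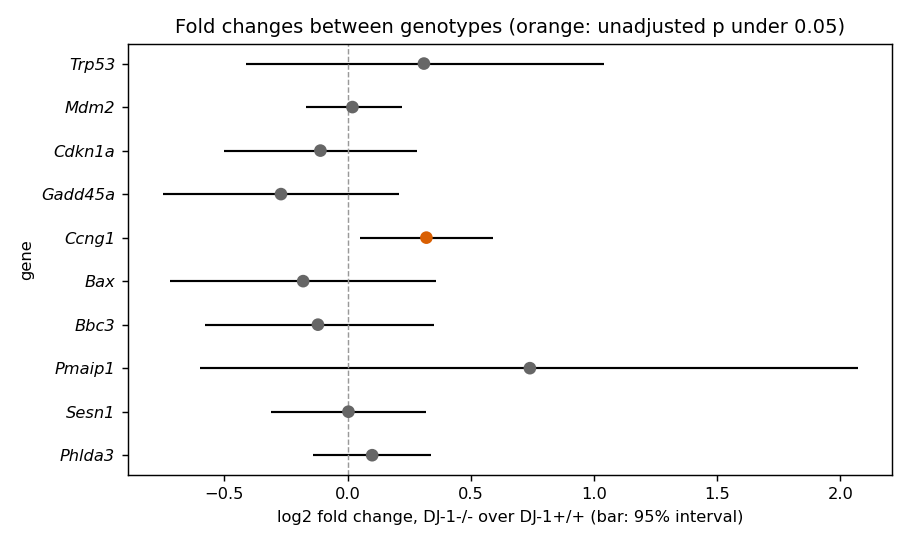
Log2 fold change of each gene in DJ-1-/- over DJ-1+/+ mice (x axis) with its 95% interval from edgeR's quasi-likelihood fit, with the gene of an unadjusted p under 0.05 in orange. The interval of Ccng1, 0.05 to 0.59, is the one that leaves out 0, and those of Trp53 and Pmaip1 are the widest.

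The 3 apoptosis genes belong to the BCL2 family. Bax forms the pore in the outer mitochondrial membrane, while Bbc3 (PUMA) and Pmaip1 (NOXA) are BH3-only proteins that neutralise the survival members. Bax sits on the minus strand of chromosome 7, bases 45461697 to 45466898, and shares 192 exon bases with Gm45808 on the same strand, which had 0 counts. Its cpm was 24.9, 14.8, 32.6 and 22.6 across DJ-1+/+ replicates and 25, 26.4, 17.5, 15.5 and 19.5 across DJ-1-/- replicates. All DJ-1-/- values fell inside the DJ-1+/+ range. Between genotypes the difference was −0.18 on the log2 scale with a 95% interval of −0.72 to 0.36 (edgeR, unadjusted p = 0.486), and it was 0.01 without DJ-1+/+ replicate 3, the highest library. The ratio of Bax to Bcl2, a survival member of the family, covered 0.127 to 0.326 in the DJ-1+/+ group and 0.142 to 0.287 in the DJ-1-/- group.

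Bbc3 sits on the plus strand of chromosome 7, bases 16308393 to 16318205. Its cpm was 36.8, 25, 18.6 and 22.6 across DJ-1+/+ replicates and 23, 24.6, 23.7, 25.8 and 21.4 across DJ-1-/- replicates. As with Cdkn1a, DJ-1+/+ replicate 1 was the highest library and the DJ-1-/- mice lay inside the DJ-1+/+ range. Between genotypes the difference was −0.12 on the log2 scale with a 95% interval of −0.58 to 0.35 (edgeR, unadjusted p = 0.602), and it turned to 0.10 without DJ-1+/+ replicate 1.

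Pmaip1 sits on the plus strand of chromosome 18, bases 66458533 to 66465565. It had 3, 1, 2 and 11 counts across DJ-1+/+ replicates and 3, 12, 7, 3 and 17 counts across DJ-1-/- replicates. DJ-1+/+ replicate 4 and DJ-1-/- replicates 2 and 5 had more than 10 counts, and 5 of the other 6 libraries were at or under 3. Between genotypes the difference was 0.74 on the log2 scale with a 95% interval of −0.60 to 2.07 (edgeR, unadjusted p = 0.26). It ran from 0.31 to 1.77 over the 9 fits that left out a library. The low end was without DJ-1-/- replicate 5 (edgeR, unadjusted p = 0.632), and it was 0.41 without DJ-1+/+ replicate 2 and 0.51 without DJ-1+/+ replicate 3. Without DJ-1+/+ replicate 4 it was 1.77 (edgeR, unadjusted p = 0.0212, adjusted p = 0.999). With Xist expression added as a covariate it was 1.42 (edgeR, unadjusted p = 0.0262, adjusted p = 1), and without DJ-1+/+ replicates 1 and 4 it was 2.18 (edgeR, unadjusted p = 0.0258, adjusted p = 0.999). DJ-1+/+ replicate 4 was the library with the most choroid plexus and the fewest dopaminergic neuron markers, and it had 1 count of Xist. DJ-1-/- replicate 5, the library with the most Pmaip1, had 243 summed cpm of choroid plexus markers, inside the range of the other DJ-1-/- mice, and 891 of dopaminergic neuron markers, the fewest among them. The part of tissue content and of sex-linked expression in the Pmaip1 values was not tested.

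Sesn1 and Phlda3 link p53 to growth signalling. Sesn1 encodes sestrin 1, which restrains mTOR complex 1 and lowers oxidative stress, and sits on the plus strand of chromosome 10, bases 41809935 to 41908424. Its cpm was 60.6, 52.3, 60.5 and 60.9 across DJ-1+/+ replicates and 69.1, 54.6, 68.1, 43.4 and 58.5 across DJ-1-/- replicates. The means were 58.6 ± 4.2 cpm (SD, n = 4) and 58.7 ± 10.6 cpm (SD, n = 5), and DJ-1-/- mice lay both above and below the DJ-1+/+ range. The 95% interval of the log2 fold change was −0.31 to 0.32 (edgeR, unadjusted p = 0.98).

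Phlda3, whose protein competes with AKT for membrane lipids, sits on the plus strand of chromosome 1, bases 135766119 to 135769136. Its cpm was 78.4, 84.1, 65.2 and 73.4 across DJ-1+/+ replicates and 79.1, 93.8, 75.3, 83.7 and 70.2 across DJ-1-/- replicates. Of the DJ-1-/- mice 4 of 5 were above the DJ-1+/+ mean of 75.2 cpm and 1 was above every DJ-1+/+ mouse. On the log2 scale the difference was 0.10 with a 95% interval of −0.14 to 0.34 (edgeR, unadjusted p = 0.399). It was 0.03 without DJ-1+/+ replicate 3 and 0.04 without DJ-1-/- replicate 2.

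**Figure D3:**
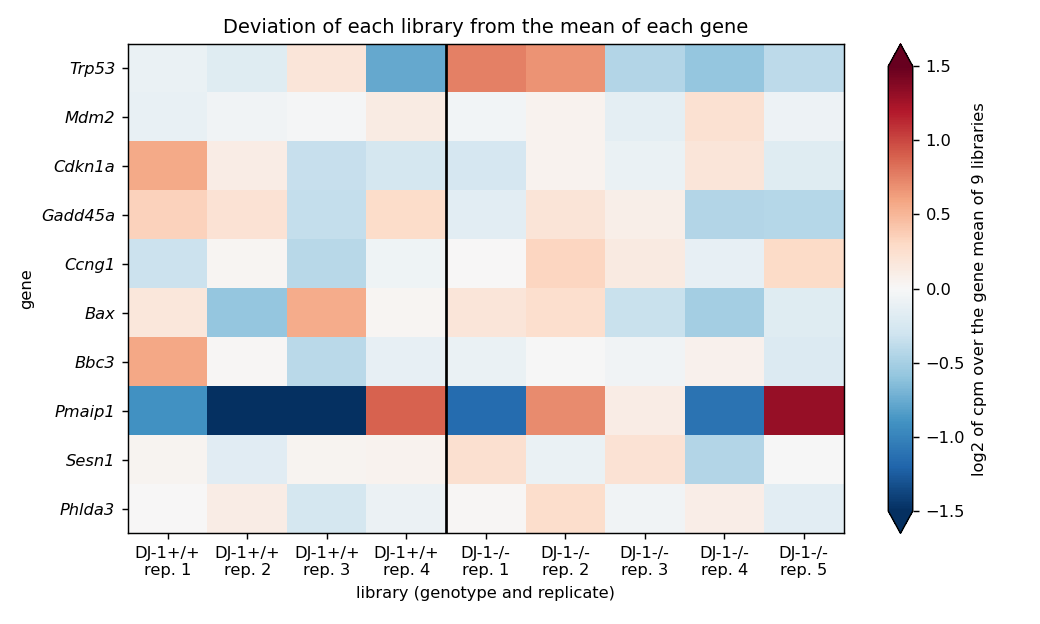
Log2 of the cpm of each gene (rows) over its mean of the 9 libraries, by library (columns, DJ-1+/+ left of the line), in red where above and in blue where below, with the colour scale ending at 1.5 in either direction. Cdkn1a and Bbc3 are highest in DJ-1+/+ replicate 1, Trp53 in DJ-1-/- replicates 1 and 2, and Pmaip1 in DJ-1+/+ replicate 4 and DJ-1-/- replicate 5.

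The summed level of the 9 targets was set beside Trp53 mouse by mouse. In DJ-1-/- replicate 1, with 26 cpm of Trp53, the summed cpm of the 9 targets was 436, and in DJ-1-/- replicates 3, 4 and 5, with 10.3 to 11.7 cpm of Trp53, it was 433 to 436. DJ-1-/- replicate 2 combined 24.6 cpm of Trp53 with a sum of 487, the highest of all libraries. Across DJ-1+/+ replicates Trp53 was at 14.3, 13.6, 17.5 and 9.03 cpm and the sum at 460, 432, 393 and 444. DJ-1+/+ replicate 3 thus had the most Trp53 of its group and the lowest sum of all libraries. Means of the sum were 432 ± 28.3 (SD, n = 4) in DJ-1+/+ and 446 ± 23.3 (SD, n = 5) in DJ-1-/- mice. Values of Mdm2, at 94.9 to 123 cpm, weigh most in this sum.

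How far the mice of a genotype differed was set against counting error by a chi-square per degree of freedom, which is near 1 where counting error alone is at work. It was 0.82 for Mdm2, 0.85 for Gadd45a, 0.92 for Phlda3 and 0.94 for Bbc3, so that for these the spread was no larger than that of counting. Sesn1 at 1.18, Ccng1 at 1.28 and Bax at 1.47 were near the medians of genes of similar count, which were 1.18, 1.08 and 1.29. Cdkn1a at 2.06 and Trp53 at 2.41 each exceeded 78.8% of the genes of similar count. Pmaip1, at 4.32, varied more than 95.5% of the 1025 genes of similar count, whose median was 1.26.

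**Figure D4:**
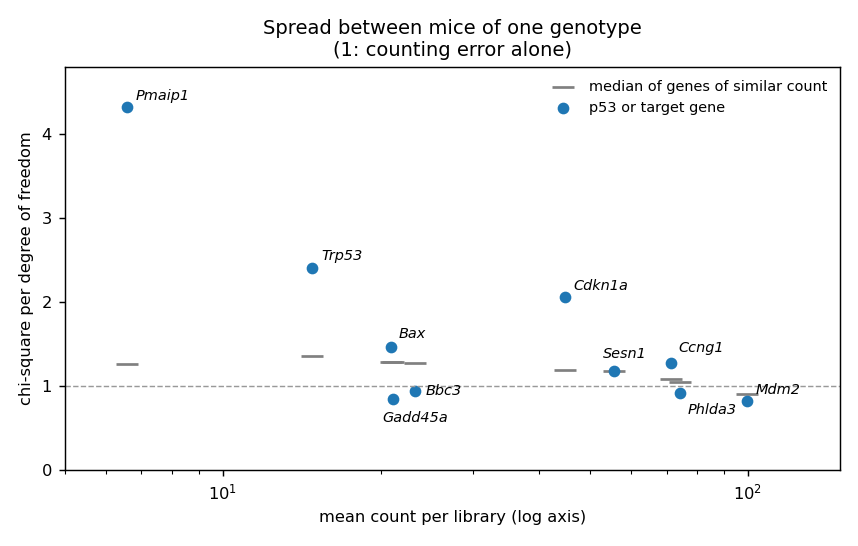
Chi-square per degree of freedom between mice of the same genotype (y axis) against mean count per library (x axis, log scale), with points for the 10 genes, grey dashes for the median of genes of similar count and a dashed line at 1, the value of counting error alone. Pmaip1 at 4.32, Trp53 at 2.41 and Cdkn1a at 2.06 stand above the dashes, while 4 of the 10 genes are under the line.

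The wider p53 pathway was described with 4 gene lists. Among 23 regulators and kinases, which set the level and activity of p53, 22 were tested. Of these 0 reached an unadjusted p of 0.05 with edgeR or with DESeq2. Over all genes tested 2.83% did with edgeR and 235 of 18127 with DESeq2. The median log2 fold change of the 22 was −0.05. Of the 22 genes 7 were above 0 and 15 below, where 51.9% of all genes tested were above 0. The kinase Atm, which senses DNA breaks, was at −0.03 with a 95% interval of −0.31 to 0.25, the phosphatase Ppm1d, itself a p53 target, at −0.15 with an interval of −0.48 to 0.17, and Mdm4 at −0.06 with an interval of −0.25 to 0.13. The p53 relatives Trp73 and Trp63 had few counts. Trp73 had 0, 0, 0 and 2 counts across DJ-1+/+ replicates and 2, 2, 1, 2 and 5 across DJ-1-/- replicates, so no fold is given. Trp63 had 7, 3, 6 and 3 counts and 1, 6, 2, 5 and 3 counts, with the lowest log2 fold change of the list at −0.69 and an interval of −1.81 to 0.42. Cdkn2a, the tumour suppressor locus that blocks Mdm2, had 1 count in all 9 libraries together.

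Of 30 other p53 target genes 29 were tested. A log2 fold change above 0 was found for 16 of the 29 and below 0 for 13, where 51.9% of all genes tested were above 0. The median of the 29 was 0.04, and 0 of them had an adjusted p under 0.05 in edgeR's test. At an unadjusted p under 0.05 edgeR called 1 of the 29, Tap1, against 2.83% of all genes tested, and DESeq2 called 0 of the 29 and 235 of all 18127 genes. Tap1 encodes a subunit of the transporter that carries peptides to MHC class I molecules and is induced by interferon as well as by p53. It had 6, 9, 7 and 4 counts across DJ-1+/+ replicates and 15, 14, 15, 10 and 11 counts across DJ-1-/- replicates. Its cpm did not overlap between the genotypes, by the narrow margin of 10.2 cpm in the highest DJ-1+/+ mouse and 10.3 cpm in the lowest DJ-1-/- mouse. Of all genes tested 0.662% were higher in DJ-1-/- mice without overlap. The log2 fold change was 0.77 with a 95% interval of 0.08 to 1.45 (edgeR's quasi-likelihood test, unadjusted p = 0.0303, adjusted p = 1), and the unadjusted p stayed under 0.05 in 5 of the 9 fits that left out a library. At the low end stood Sesn2, the stress-induced relative of Sesn1, at −0.49 with an interval of −1.06 to 0.08, and all 5 DJ-1-/- mice were below the DJ-1+/+ mean. Pidd1, with 0, 1, 2 and 0 counts and 5, 5, 1, 1 and 1 counts, was too rare for a fold. Gdf15, a secreted stress factor, had between 0 and 4 counts per library and was not tested.

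Among 9 paralogs of the genes, 8 were tested and 0 had an unadjusted p under 0.05 in either tool. Log2 fold changes of the 8 ran from −0.49 for Sesn2 to 0.10 for Gadd45g, with a median of −0.05. Among 19 genes of the BCL2 family and of apoptosis execution, 18 were tested and 0 had an unadjusted p under 0.05 in either tool. Of these 18 genes 5 were higher and 13 lower, with a median of −0.04. Over all genes tested 2.83% were called with edgeR and 235 of 18127 with DESeq2, and 51.9% were above 0 with edgeR. At such shares 0 calls in lists this short carry little information. The highest was Hrk, a neuronal BH3-only gene, at 0.30 with a 95% interval of −0.24 to 0.85.

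**Figure D5:**
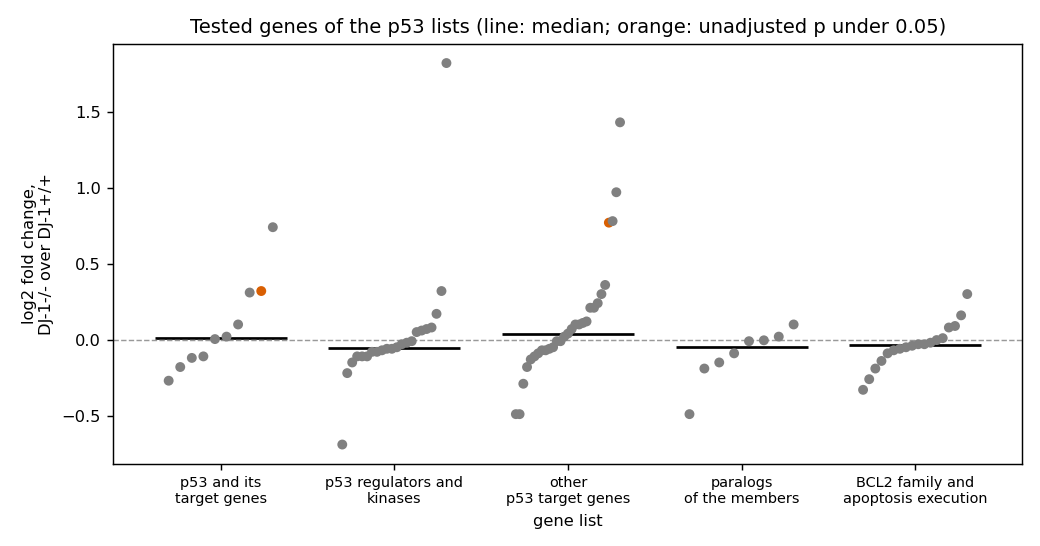
Log2 fold change in DJ-1-/- over DJ-1+/+ mice (y axis) of the tested genes of the p53 list and of the 4 further lists (x axis), 1 point per gene, with the list median as a line and genes of an unadjusted p under 0.05 in orange. The medians lie between −0.05 and 0.04, and the orange points are Ccng1 and Tap1.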

How the data were processed

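Midbrain tissue from 4 DJ-1+/+ and 5 DJ-1-/- mice was profiled by QuantSeq 3′ mRNA-seq (FWD kit) with unique molecular identifiers (UMIs). The authors deposited UMI counts per Ensembl gene, not normalized, and list only genes with at least 1 count. The submitters' processing notes name fastp 0.20.0, STAR 2.7.3a, featureCounts 2.0.0, UMI-tools 1.0.0 and GRCm38. The use of strand is not given in the sources used here.

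Counts were joined by gene identifier, with 0 for a gene not listed, and 26570 of the 26602 genes were named with GENCODE M21. A gene needed 10 or more counts summed over libraries and was then tested with edgeR 4.0.16 (glmQLFit, glmQLFTest, TMM, genotype as the only term, the model the study gives) in R 4.3.3, with Benjamini-Hochberg adjustment over 18127 genes. The standard error is the size of the log2 fold change over the square root of F, and 95% intervals use the t quantile. The cpm values are counts per 1000000 of the library total. The depth comparison used scipy 1.17.1.

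The genes and lists, and the rule for named genes, were chosen with earlier results of these data known. The text names the 10 genes, the genes of each list with an unadjusted p under 0.05 or an extreme fold change, the 3 profiles nearest to Trp53 and to Cdkn1a, and Park7. A gene that this rule names is not reported here. Atm, Ppm1d, Mdm4, Gdf15, Cdkn2a, Bcl2, Bok and the profiles nearest to Pmaip1 were added after their values were seen. Between libraries of a genotype the chi-square per degree of freedom was 1.07 to 2.27 over 16 pairs, so none was treated as a copy. On simulated data, edgeR recovered 200 of 200 genes given a log2 change of 1.5, with 9 false calls among 17837 tested. The changed genes were drawn above a minimum level that Trp53 and Pmaip1 do not reach, and every gene was given the same spread between libraries. This checks that the test runs correctly and does not tell whether smaller changes, or changes of the rarer genes, would be found.

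Alternatives were RLE factors, library totals, DESeq2 1.42.0, other filters on low counts, thinning to 841974 counts, a Xist covariate, a replicate block and libraries left out.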

Additional observations from a re-analysis of the deposited data

Results flagged for a closer look

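By Dixon's criterion, which sets the gap to the nearest mouse against the range of the group, 1 mouse stood apart in 4 of 40 groups of values examined. A rate of 1 in 20 would give 2, but that rate is for normally distributed values. Counts as low as those of Trp73 are not of that kind, so no conclusion is drawn from the number of groups. Sesn1 was at 52.3 cpm in DJ-1+/+ replicate 2, while the other DJ-1+/+ mice had 60.5 to 60.9 cpm, which is 46 counts beside 51, 52 and 54. The summed cpm of the 9 targets was 487 in DJ-1-/- replicate 2, while the other DJ-1-/- mice had 433 to 436. Trp73 was at 2.26 cpm, which is 2 counts, in DJ-1+/+ replicate 4 and at 0 in the other 3 DJ-1+/+ mice. It was at 4.87 cpm, 5 counts, in DJ-1-/- replicate 5, while the other DJ-1-/- mice had 1.03 to 2.07 cpm.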

How the results depend on the processing

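The count of members with an adjusted p under 0.05 was 0 under every alternative run. At an unadjusted p under 0.05 the count was 1 of 10, and it was 0 with DESeq2, 0 with the replicate block, 2 with the Xist covariate and 0 to 2 in the fits without a library. Over all genes 513 had an unadjusted p under 0.05, with 235 for DESeq2 (106 higher and 129 lower), 802 without the filter on low counts and 338 to 732 with each library left out, the 338 without DJ-1-/- replicate 2. An adjusted p under 0.05 was reached by 1 gene in edgeR's test, by 36 without the filter, by 8 with the replicate block and by 1 to 2 with a library left out. The log2 fold change of Sesn1, at 0.0038, became −0.01 with DESeq2, with RLE factors, with the replicate block and with thinned counts, and −0.0037 with the stricter filter. Without DJ-1+/+ replicates 1 and 4, Cdkn1a was at 0.05 and Bbc3 at 0.12. With each library left out, the ranges were −0.06 to 0.08 for Sesn1, −0.05 to 0.07 for Mdm2, −0.22 to 0.11 for Cdkn1a, −0.24 to 0.10 for Bbc3, −0.36 to 0.01 for Bax, −0.41 to −0.20 for Gadd45a, 0.03 to 0.15 for Phlda3 and 0.31 to 1.77 for Pmaip1, and the cause was not tested. The replicate block gave Pmaip1 a log2 fold change of 0.38 and Ccng1 an unadjusted p of 0.0644 in edgeR's test, but the numbers do not pair the mice. Deviations of the 4 same-numbered pairs correlated between −0.186 and 0.29 over genes. Trp53 at 8 to 27 counts and Pmaip1 at 1 to 17 counts per library leave only large changes within reach.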

Other observations

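The profile of Pmaip1 was compared with those of 10766 genes after its values were seen. The nearest were 1700019D03Rik, Tmem138 and Akap1, at distances of 0.31, 0.37 and 0.40 over the 9 libraries. 1700019D03Rik had 51.9 cpm in DJ-1+/+ replicate 4 and 56.5 cpm in DJ-1-/- replicate 5, against 18.2 to 36.4 cpm in the other 7 libraries. Bok, of the BCL2 family list, was also highest in those 2 libraries, at 108 and 93.5 cpm, against 31 to 65 cpm in the others, and its log2 fold change between genotypes was −0.07 with a 95% interval of −0.78 to 0.65. Xist was near 0 in both, and Ddx3y, a Y-linked gene, had 113 and 152 counts. DJ-1+/+ replicate 1 also had Y-linked expression, with 121 counts of Ddx3y, and it had 3 counts of Pmaip1 and 38 cpm of Bok. The part of sex-linked expression in the values of Pmaip1 and Bok was not tested.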
